A study of Mus musculus with 56 samples.

Results

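This account follows 9 mouse genes that are known targets of the transcription factor NRF2, which were measured on microarrays in livers of mice given locked nucleic acid (LNA) gapmers. The genes were Nqo1, Srxn1, Gclc, Gclm, Txnrd1, Hmox1, Slc7a11, Osgin1 and Gsr, chosen by symbol. They were read by 18 probe sets annotated to exactly 1 of these symbols, out of 34958 probe sets with a single gene symbol that together covered 18194 genes. A gapmer is a short antisense oligonucleotide whose chemically modified ends flank a DNA stretch that recruits RNase H to a paired RNA. The sources used here do not give the transcripts that these gapmers were designed against.

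All mice were male CD-1, an outbred stock, aged 6 to 8 weeks when dosing began, and each of the 56 arrays held the liver RNA of 1 mouse. The gapmers were HTS-3, labelled as severely toxic, TS-2, labelled as toxic, and NTS-1, labelled as non-toxic. Each was injected under the skin at 25 mg/kg in Dulbecco's phosphate-buffered saline, and vehicle mice received the saline alone. In the single-dose study, livers were taken at 8, 16 and 72 h. The HTS-3 groups held 3 mice at 8 h and 4 at 16 h, with none at 72 h because those mice had died or were moribund from 48 h. The TS-2 groups held 4, 3 and 4 mice, the NTS-1 groups 3, 4 and 3 mice, and the vehicle groups 3 mice at each time. For these arrays, 3 or 4 livers with the highest hepatic hypertrophy scores were picked from each group of 10 dosed mice, so the groups were selected on a liver finding. In the 2-week study, mice were dosed on days 1, 4, 8 and 11 and livers were taken on day 14 from 5 TS-2 mice, 4 NTS-1 mice and 10 vehicle mice.

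NRF2, encoded by Nfe2l2, is held at a low level by KEAP1, which hands it to a cullin 3 ubiquitin ligase for degradation. When electrophiles or oxidants modify KEAP1, NRF2 accumulates, pairs with a small MAF protein and binds antioxidant response elements near its target genes, while BACH1 occupies many of the same elements as a repressor. In liver the targets supply glutathione and thioredoxin, detoxify quinones and electrophiles and break down heme, and they respond to many hepatotoxic drugs.

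Promoter windows are shown for 4 members because these genes behaved differently in the comparisons below: Srxn1, Nqo1 and Gclm were higher in TS-2 livers at 2 weeks, and Osgin1 was not. Each window runs from 250 bases before to 50 bases after the gene start in RefSeq's mouse annotation of GRCm38.p6, printed 5′ to 3′ on the strand of the gene. Capitals mark matches on either strand to TGANNNNGC, a loose form of the core of the antioxidant response element. The Srxn1 window lies at chr2:152105274-152105573 on the plus strand, the Gclm window at chr3:122245307-122245606 on the plus strand, the Nqo1 window at chr8:107403156-107403455 on the minus strand and the Osgin1 window at chr8:119436897-119437196 on the plus strand.
Srxn1: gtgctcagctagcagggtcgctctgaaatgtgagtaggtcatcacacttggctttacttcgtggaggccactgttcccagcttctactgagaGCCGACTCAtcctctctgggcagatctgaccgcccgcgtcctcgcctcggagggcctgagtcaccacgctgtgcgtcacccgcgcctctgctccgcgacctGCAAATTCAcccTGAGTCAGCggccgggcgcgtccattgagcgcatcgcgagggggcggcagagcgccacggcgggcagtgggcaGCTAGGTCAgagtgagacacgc
Gclm: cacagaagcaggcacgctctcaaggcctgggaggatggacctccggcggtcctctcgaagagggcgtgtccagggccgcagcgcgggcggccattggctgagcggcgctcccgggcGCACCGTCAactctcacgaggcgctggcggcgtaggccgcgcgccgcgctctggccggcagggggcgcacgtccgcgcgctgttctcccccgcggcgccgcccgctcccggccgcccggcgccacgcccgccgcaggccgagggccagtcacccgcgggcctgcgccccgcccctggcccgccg
Nqo1: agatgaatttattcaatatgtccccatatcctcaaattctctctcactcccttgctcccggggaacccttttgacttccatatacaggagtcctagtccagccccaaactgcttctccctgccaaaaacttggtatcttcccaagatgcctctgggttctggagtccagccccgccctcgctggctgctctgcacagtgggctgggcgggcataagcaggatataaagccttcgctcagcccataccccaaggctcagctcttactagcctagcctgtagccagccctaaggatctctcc
Osgin1: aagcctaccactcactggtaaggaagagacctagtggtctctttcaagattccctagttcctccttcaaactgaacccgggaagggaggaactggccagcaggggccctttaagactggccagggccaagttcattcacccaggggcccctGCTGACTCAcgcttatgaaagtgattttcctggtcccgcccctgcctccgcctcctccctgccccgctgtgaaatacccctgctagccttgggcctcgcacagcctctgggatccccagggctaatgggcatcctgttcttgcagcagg
The Srxn1 window held 4 matches. One of them, TGAGTCAGC starting 45 bases before the gene start, also fits the narrower TGANTCAGC, in which the element overlaps an AP-1 site. The Gclm window held 1 match, on the opposite strand, starting 134 bases before the gene start. The Osgin1 window held 1 match, on the opposite strand, starting 99 bases before the gene start, and it also fits TGANTCAGC. The Nqo1 window held no match, which says only that these letters are not in this window. TGANNNNGC occurred in 41.34% of all 32851 such promoter windows and TGANTCAGC, a form searched after the windows had been read, in 1.19%. In all, 6 of the 9 members had a window in the table used. Windows of Slc7a11 and Txnrd1 held between 0 and 3 matches to TGANNNNGC.

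Values are linear array intensities, and differences are given as log2 changes with their standard errors (SE) from a limma fit over all genes. A gene was counted as changed where its Benjamini-Hochberg adjusted p was under 0.05 over all genes of that comparison. The single-dose and 2-week arrays differ in intensity scale and were fitted apart, so no level was set against one from the other set, and intensities of different genes were not compared. The mice have no shared litter or batch in the labels. The p-values rest on 1 spread between mice per gene, shared by all groups of an array set. At 2 weeks that spread was uneven: the SD of log2 Srxn1 was 1.084 in TS-2 and 0.183 in vehicle mice. For Nqo1 it was 1.007 and 0.286, and only for Gsr of the 8 members was it smaller in TS-2 mice (0.136 against 0.302). In Gclc, Gclm and Txnrd1 the SD was 0.319, 0.191 and 0.441 in TS-2 mice, against 0.109, 0.069 and 0.261 in vehicle mice. The shared spread is thus narrower than that of the TS-2 mice for Srxn1, Nqo1, Gclc, Gclm and Txnrd1. The 8 hepatocyte markers measured ranked at or above percentile 94.47 on every array, and arrays of 1 group correlated at 0.953 to 0.989 on average with each other. In whole liver, fewer cells of a type and less RNA per cell cannot be told apart. One HTS-3 array titled 8 h (mouse 3) carries a description that says 16 h, and it was kept at 8 h. Slc7a11, the transport subunit of the cystine/glutamate exchanger, gave no usable value. It read the lowest value of the set, 4.56, on all 37 single-dose arrays, and at 2 weeks it read 16.5 to 20.3 in TS-2 mice, 17.3 to 23.6 in NTS-1 mice and 17.2 to 24.6 in vehicle mice, below the filter on dim genes. The results at 2 weeks therefore concern 8 members.

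After 2 weeks, 5 of the 8 members measured rose in TS-2 livers against vehicle: Srxn1, Nqo1, Txnrd1, Gclc and Gclm. The genes for glutathione synthesis, thioredoxin recycling and quinone reduction were among them, while Hmox1, Gsr and Osgin1 did not pass the test. The changes ran from 1.39-fold for Gclm to 4.24-fold for Srxn1. No member fell. In this comparison 37.4% of all 14454 genes tested changed and 22.8% rose, so many genes outside the pathway moved as well. The median log2 change was 0.67 over the 8 members and -0.01 over all genes tested.

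**Figure D1:**
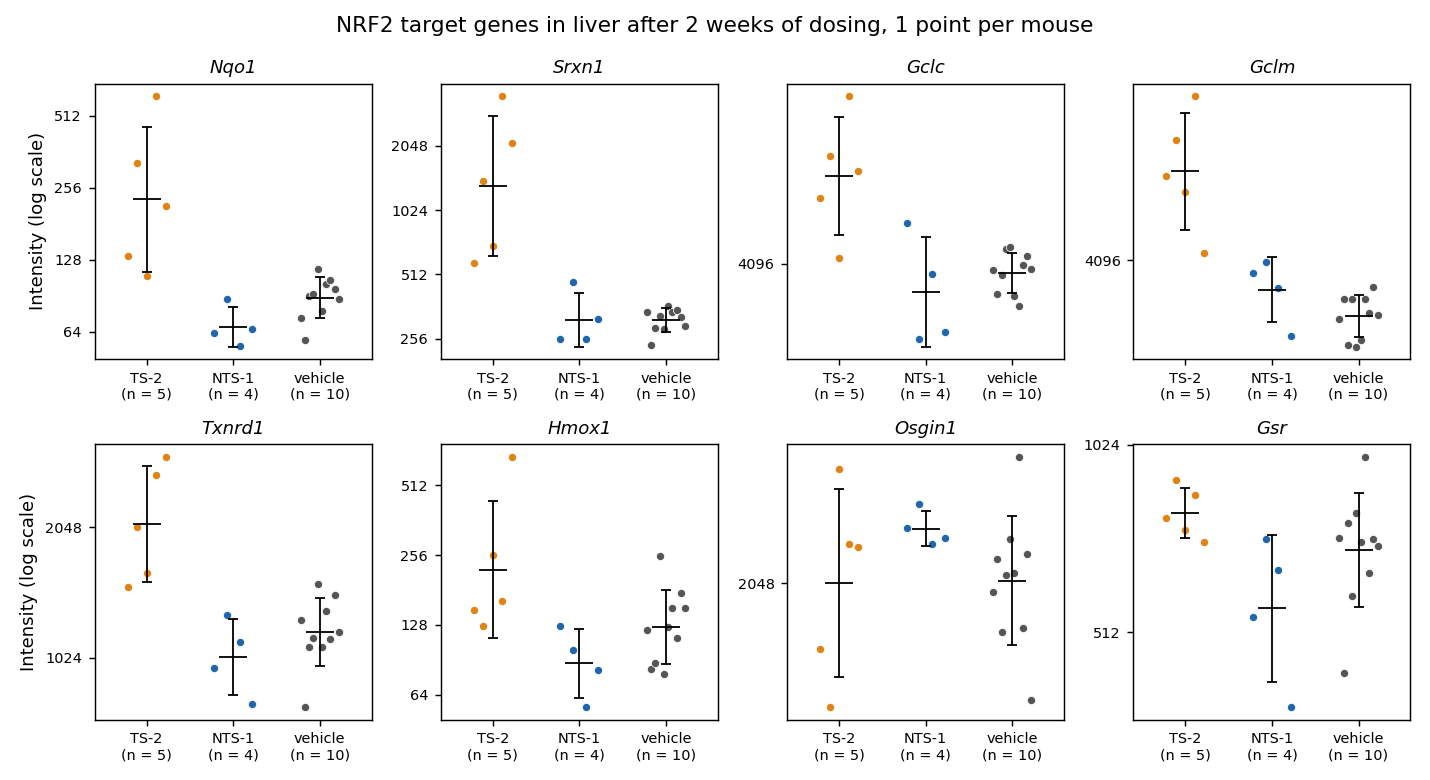
Intensity (log scale) of 8 NRF2 target genes in livers after 2 weeks, 1 point per mouse, for TS-2 (5 mice), NTS-1 (4 mice) and vehicle (10 mice). Horizontal lines are means of log2 intensity and bars 1 SD. All TS-2 points of Srxn1 and Gclm lie above every vehicle point, while those of Osgin1 and Gsr overlap the vehicle points.

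Glutathione synthesis starts with glutamate-cysteine ligase, whose catalytic subunit is Gclc and whose modifier subunit is Gclm. Gclm read 4960.4, 5381, 4775, 5935 and 4165 in TS-2 mice 1 to 5, against 3370.3 to 3858 with a median of 3628 in the vehicle mice. Every TS-2 mouse lay above every vehicle mouse. The log2 change of Gclm was 0.47 ± 0.08 (SE, adjusted p = 7.07e-05). Gclc read 5241, 6122, 4178, 7650.0 and 5777 in the TS-2 mice, against 3492 to 4355 with a median of 3999.9 in vehicle mice. Only TS-2 mouse 3 fell within the vehicle range. The log2 change of Gclc was 0.52 ± 0.12 (SE, 1.44-fold, adjusted p = 0.00165).

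The other probe sets of both ligase subunits differed from these. When each probe set was tested on its own over 24707 probe sets, the dimmer Gclc probe set was 0.31 higher on the log2 scale in TS-2 livers, with an adjusted p of 0.0684. The dimmer Gclm probe set stood at -0.18, with an adjusted p of 0.43. With all probe sets of a gene averaged in place of the brightest, Gclm was 0.15 higher (log2, adjusted p = 0.295) and was no longer called. The rise of Gclm thus held for its brighter probe set and not for its dimmer one.

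Srxn1 encodes sulfiredoxin, which repairs over-oxidised peroxiredoxins. It read 577, 1398, 696, 3482 and 2112 in TS-2 mice 1 to 5, against 239 to 365 with a median of 327 in vehicle mice. All 5 TS-2 mice lay above all 10 vehicle mice, and the highest TS-2 mouse stood well apart from the lowest. The log2 change was 2.08 ± 0.29 (SE, 4.24-fold, adjusted p = 2.29e-05), the largest of the 8 members. Its 3 other probe sets were higher as well, by 1.29, 1.70 and 0.48 on the log2 scale, with adjusted p of 0.000888, 9.39e-05 and 0.0112. Groups that did not overlap, with TS-2 higher, were seen for 7.8% of all genes, and for Srxn1 and Gclm among the members.

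Txnrd1 encodes the cytosolic thioredoxin reductase, which uses NADPH to keep thioredoxin reduced. It read 1487, 2047, 1608, 2700.5 and 2969 in TS-2 mice, against 789 to 1518 with a median of 1154.5 in vehicle mice. Only TS-2 mouse 1 lay within the vehicle range. The log2 change was 0.83 ± 0.17 (SE, 1.77-fold, adjusted p = 0.000578), and a second probe set gave 0.51 (adjusted p = 0.00388). Gsr, the glutathione reductase that returns oxidised glutathione to its reduced form, read 781, 898, 747, 851 and 713 in TS-2 mice, against 441 to 978 with a median of 718 in vehicle mice. All TS-2 values of Gsr lay inside the vehicle range. Its log2 difference was 0.20 ± 0.15 (SE, adjusted p = 0.329), with a second probe set at 0.28 (adjusted p = 0.122).

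Nqo1 encodes the quinone reductase that converts quinones to hydroquinones. It read 133, 324, 109.9, 619.8 and 215 in TS-2 mice 1 to 5, against 59.4 to 117 with a median of 91.5 in vehicle mice. TS-2 mouse 3 lay within the vehicle range and the other 4 lay above it. The log2 change was 1.37 ± 0.28 (SE, 2.58-fold, adjusted p = 0.000704). Hmox1 encodes the inducible heme oxygenase, which opens the heme ring. It read 148, 127, 255, 163 and 678 in TS-2 mice, against 78.4 to 253 with a median of 124 in vehicle mice. TS-2 mouse 5 stood far above the rest, mouse 3 just above the vehicle range and the other 3 inside it. The log2 difference of Hmox1 was 0.81 ± 0.33 (SE, adjusted p = 0.0602), and it was 0.41 without mouse 5 (adjusted p = 0.282).

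Osgin1 encodes an oxidative stress-induced growth inhibitor linked to cell death. It read 1486, 1113, 3608, 2484 and 2456 in TS-2 mice, against 1155 to 3822 with a median of 2145 in vehicle mice. The TS-2 mice lay on both sides of the vehicle median, with mouse 2 below all vehicle mice. The log2 difference was -0.02 with a 95% interval of -0.52 to 0.49 (adjusted p = 0.966). The vehicle mice themselves spanned a wide range for this gene.

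The 5 TS-2 mice differed in how far the members rose. Of the 8 members, 4, 5, 4, 5 and 6 lay above all vehicle mice in TS-2 mice 1 to 5. The share of all genes above the vehicle range in each mouse was not counted, so these counts have no background. The median deviation of the 8 members from the vehicle mean was 0.37, 0.60, 0.43, 0.83 and 0.91 on the log2 scale in mice 1 to 5. Mouse 4 had the highest value of Srxn1, Nqo1, Gclc and Gclm. Mouse 5 had the highest value of Txnrd1 and Hmox1 and the lowest of Gclm. The members thus did not rank the mice in 1 order.

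**Figure D2:**
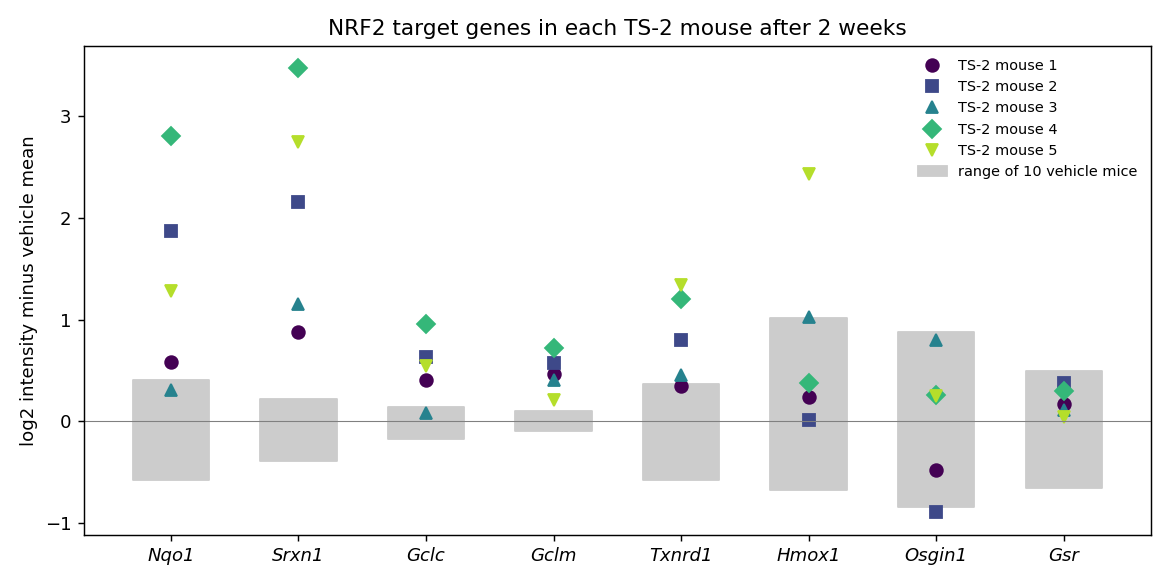
Log2 intensity of 8 members in each TS-2 mouse after 2 weeks, as the difference from the mean of 10 vehicle mice. Grey bars span the lowest to the highest vehicle mouse. TS-2 mouse 4 is highest for Nqo1, Srxn1, Gclc and Gclm, and TS-2 mouse 5 stands alone for Hmox1.

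Some markers of other liver cells differed between TS-2 and vehicle livers at 2 weeks. The summed intensity of 15 Kupffer cell and macrophage markers was 3608, 5551, 6822, 6818 and 25370.0 in TS-2 mice 1 to 5. In vehicle mice it was 2672 to 10738, and only TS-2 mouse 5 lay outside that range. The sum of 9 neutrophil markers was 471, 921, 632, 1931 and 12752 in TS-2 mice, against 390.0 to 541 in vehicle mice. TS-2 mouse 5, the mouse with the highest Hmox1, was the highest for both sums. Of the 15 macrophage markers, 4 rose: Cd14 by 1.90, Marco by 1.71, Cd68 by 1.21 and Ctss by 1.06 on the log2 scale. Of the 9 neutrophil markers, Lcn2 rose by 3.96 and Camp fell by 0.20, while the granule genes Ngp and Mmp8 did not pass. Stressed hepatocytes also make Lcn2. A sum of linear intensities is led by its brightest genes, and the part of Lcn2 in the neutrophil sum was not separated. Of the endothelial markers, 8 of 10 fell, with a median log2 change of -0.80. Of all genes in this comparison, 37.4% changed and 22.8% rose. The endothelial sum was 1434 to 3404 in TS-2 mice, against 3248 to 5800.0 in vehicle mice. Of 10 stellate cell markers 4 rose, and their sum was 7667, 9059, 14914, 9500 and 13470.0 in TS-2 mice 1 to 5, against 5899 to 9742 in vehicle mice. The count of macrophage markers that rose is near the share of all genes that did. The part of these cells in the members' values was not tested. Without TS-2 mouse 5, the same 5 members were called. The log2 ratio of 3′ to 5′ Actb probe sets, a measure of RNA quality, was 1.41 to 1.66 in TS-2 mice and 1.36 to 1.87 in vehicle mice.

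NTS-1, dosed in the same way, gave no called member at 2 weeks, and none had an unadjusted p under 0.05 in limma, while 4.91% of all genes changed. Nqo1 read 63.6, 88.2, 56.0 and 65.5 in NTS-1 mice, and Srxn1 read 255, 470.1, 257 and 317. Both sets of values overlapped the vehicle range. The log2 differences from vehicle ran from -0.52 for Hmox1 (adjusted p = 0.458) to 0.37 for Osgin1 (adjusted p = 0.475). That of Srxn1 was 0.00 with a 95% interval of -0.66 to 0.67. Of the 8 members, 2 lay above all vehicle mice in each of NTS-1 mice 1 and 2, and none did in mice 3 and 4. The share of all genes doing so was not counted here either.

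The direct comparison of the toxic with the non-toxic gapmer at 2 weeks called 6 of 8 members, all higher in TS-2 livers. The background was 21% of all genes called, 14.1% of them called higher, and 10.5% with TS-2 values entirely above those of NTS-1. Srxn1 was higher by 2.08 ± 0.36 (SE, log2, 4.22-fold, adjusted p = 0.00101) and Nqo1 by 1.77 ± 0.34 (3.41-fold, adjusted p = 0.00203). Txnrd1 was higher by 1.02 ± 0.20 (2.03-fold, adjusted p = 0.00225). These 3 genes and Gclm had no overlap between the groups. For Gclm, the 4165 to 5935 of the TS-2 mice stood against 3452 to 4082 in NTS-1 mice, a log2 change of 0.39 ± 0.09 (adjusted p = 0.00702). Gclc was higher by 0.63 on the log2 scale (adjusted p = 0.00595), with NTS-1 values of 4771, 3091, 3935 and 3176 that overlapped the TS-2 values. Hmox1 read 127, 99.6, 56.5 and 81.8 in NTS-1 mice and was 1.34 ± 0.41 higher (log2) in TS-2 mice (adjusted p = 0.0248). Without TS-2 mouse 5, the Hmox1 difference was 0.94 with an adjusted p of 0.0591. Gsr stood at 0.51 (adjusted p = 0.0565) and Osgin1 at -0.39 (adjusted p = 0.362). The dimmer probe sets differed in call: that of Gsr passed (0.56, adjusted p = 0.0255), and those of Gclm (0.26, adjusted p = 0.384) and the dimmest of Srxn1 (0.37, adjusted p = 0.126) did not. With only the compared groups in the fit, 3 members were called, Srxn1, Nqo1 and Txnrd1. This comparison and that with vehicle share the TS-2 mice.

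**Figure D3:**
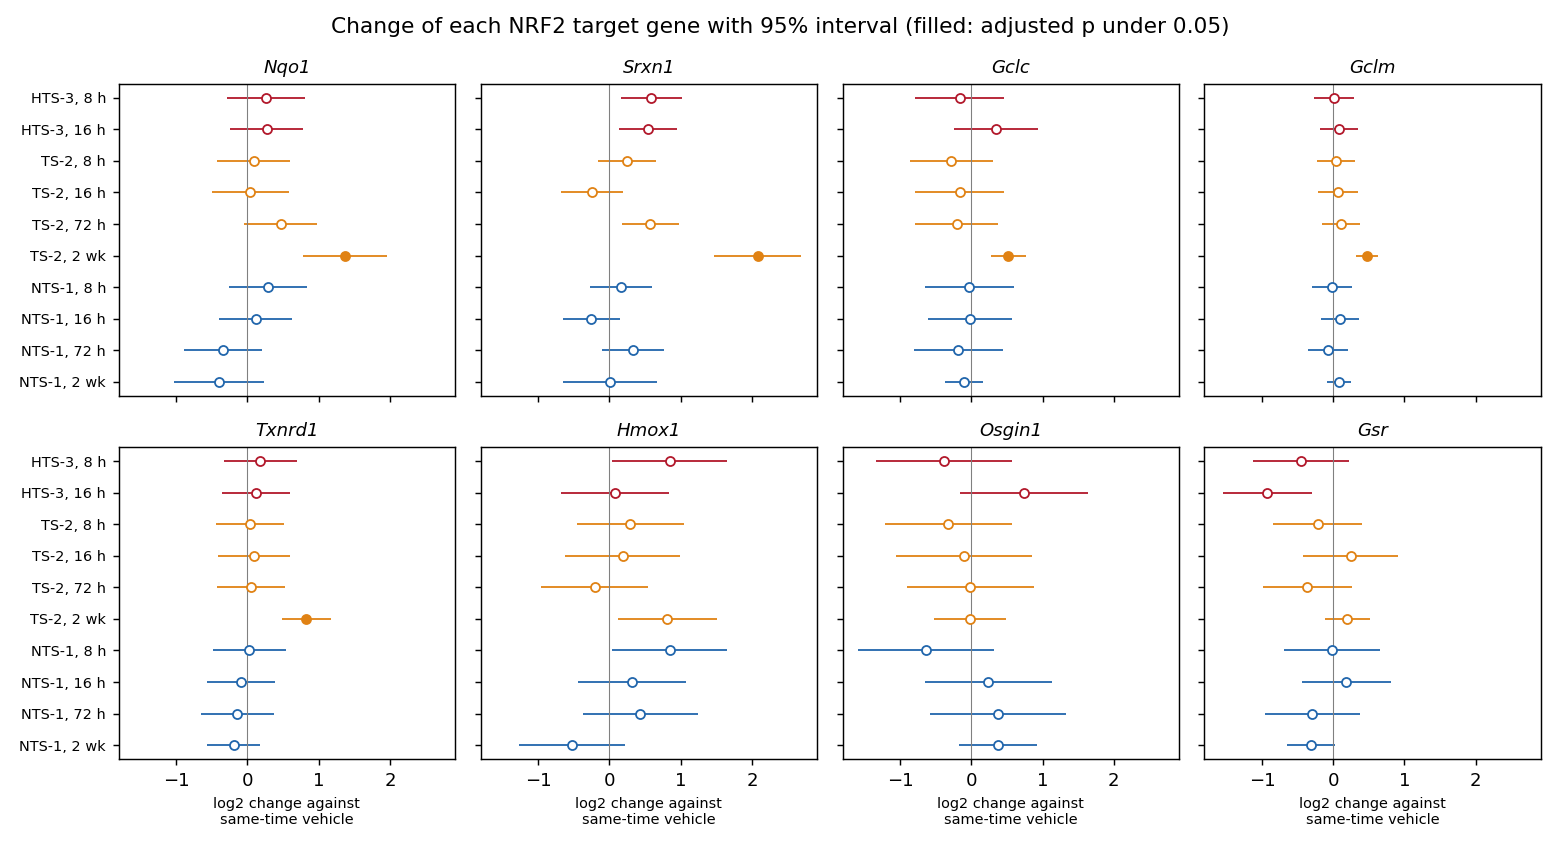
Log2 change of each member against vehicle of the same time, with 95% intervals, for HTS-3 at 8 and 16 h, TS-2 and NTS-1 at 8, 16 and 72 h and at 2 weeks. Filled points had an adjusted p below 0.05. The 5 filled points are Nqo1, Srxn1, Gclc, Gclm and Txnrd1 in TS-2 livers at 2 weeks.

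After a single dose, no member passed the test against vehicle for any gapmer at any time. The nearest were Gsr and Srxn1 in HTS-3 livers at 16 h. In the same comparisons, the share of all 18194 genes called was 0.588% at 8 h and 7.35% at 16 h for HTS-3. It was 0.044%, 0.0165% and 0.137% at 8, 16 and 72 h for TS-2, and 0.61%, 0.148% and 0% at 8, 16 and 72 h for NTS-1. At an unadjusted p under 0.05, limma counted 2 members for HTS-3 at 8 h (Srxn1 and Hmox1), 2 at 16 h (Srxn1 and Gsr), 1 for TS-2 at 72 h (Srxn1) and 1 for NTS-1 at 8 h (Hmox1), with 0 in the other comparisons with vehicle.

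Gsr in HTS-3 livers at 16 h read 384, 428, 623 and 624.8 in mice 1 to 4, against 751.5, 1081 and 1073 in vehicle mice. All HTS-3 mice lay below all vehicle mice, a pattern shown by 5.37% of all genes in that direction. This share and the other single-dose shares run over all 18194 genes, dim ones included. Of these, 9123 besides the members read 32 or more on at least 3 single-dose arrays. The shares among those genes alone were not counted. The log2 difference was -0.93 ± 0.30 (SE, 0.527-fold, adjusted p = 0.0639). The other probe set of Gsr, tested among all 34958 probe sets, gave -0.93 ± 0.20 with an adjusted p of 0.00425, so the call depends on the probe set. Under 5 other settings Gsr fell, with adjusted p from 0.0012 to 0.031, and it passed without HTS-3 mouse 3 (adjusted p = 0.046).

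Srxn1 in HTS-3 livers at 16 h read 2380.4, 2413, 1729 and 2029, against 1433, 1330.8 and 1609 in vehicle mice. All HTS-3 mice lay above all vehicle mice, as they did for 7.2% of all genes. The log2 difference was 0.54 ± 0.20 (SE, 1.46-fold, adjusted p = 0.104). Another Srxn1 probe set gave 0.62 ± 0.14 with an adjusted p of 0.00497, and 1 more gave 0.58 with an adjusted p of 0.0857. The dimmest, which read between 13.96 and 17.62 on the single-dose arrays, gave -0.02 (adjusted p = 1), and it enters the average below. With all probe sets of a gene averaged, both Srxn1 (0.43, adjusted p = 0.00781) and Gsr (-0.93, adjusted p = 0.0102) were called.

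Vehicle mouse 1 at 16 h stood apart in cell markers, where the neutrophil marker sum was 298 to 564 in HTS-3 mice, against 35973 in that mouse and 344 and 1340.0 in the other vehicle mice. The macrophage marker sum was 20524 to 30322 in HTS-3 mice, against 76815 in that mouse and 33389 and 33775 in the other vehicle mice. Of the 15 macrophage markers, 4 fell in HTS-3 livers, with a median log2 change of -0.86. Of all genes in this comparison, 7.35% changed in either direction. The neutrophil markers Camp, Mmp8 and Ngp read 4.56, the lowest value of the set, in every HTS-3 mouse. Such readings were usual: 3 of the 9 neutrophil markers read 4.56 in every mouse of NTS-1 at 16 h and vehicle at 8 h. There were 4 in TS-2 at 16 h and vehicle at 72 h, and 0 in vehicle at 16 h. The part of these cells in the values of Gsr and Srxn1 was not tested. Without that mouse, the log2 difference was -1.10 for Gsr (adjusted p = 0.0617) and 0.53 for Srxn1 (adjusted p = 0.243).

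The other members in HTS-3 livers at 16 h overlapped the vehicle values. Osgin1 read 11596, 3938, 7922 and 16277, against 4895, 5737 and 5144 in vehicle mice. HTS-3 mice 1, 3 and 4 were higher than every vehicle mouse and mouse 2 was lower than every one. The log2 difference was 0.74 ± 0.44 (SE, adjusted p = 0.41). Hmox1 read 440.3, 262, 595 and 751, against 673, 353 and 384 in vehicle mice, a log2 difference of 0.08 (adjusted p = 1). Gclc read 16261, 9097, 9526 and 15154, against 7163, 13116 and 9185 in vehicle mice, a log2 difference of 0.34 (adjusted p = 0.698). HTS-3 mice 1 and 4 were the high ones for Osgin1 and Gclc. The log2 differences were 0.27 for Nqo1 (adjusted p = 0.787), 0.12 for Txnrd1 and 0.08 for Gclm (adjusted p = 1 for both). In mice 1 to 4, 6, 2, 2 and 7 members of 8 lay above all vehicle mice and 1, 5, 1 and 1 lay below. In NTS-1 mice 1 to 4 at 16 h, 5, 2, 0 and 2 lay above and 0, 1, 0 and 2 below. With only 3 vehicle mice many genes fall outside their range, and the share of all genes doing so in each mouse was not counted. HTS-3 mouse 2 moved against HTS-3 mice 1 and 4 for Osgin1, Gclm and Txnrd1. For Gclc mouse 2 stood at -0.07 from the vehicle mean (log2), against 0.77 and 0.67 in mice 1 and 4. Mouse 2 moved with them for Srxn1 and Gsr, and also for Nqo1, which was dim (34.8 to 50.3 in HTS-3 mice).

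The comparisons of HTS-3 with each of the other gapmers at 16 h called 2 members, Srxn1 and Gsr. Srxn1 read 1307, 1077 and 1327 in TS-2 mice and 1735, 779, 1376 and 1196 in NTS-1 mice. It was higher in HTS-3 livers than in NTS-1 livers by 0.80 ± 0.18 (SE, log2, 1.74-fold, adjusted p = 0.00435). HTS-3 exceeded TS-2 by 0.78 ± 0.20 (1.72-fold, adjusted p = 0.013). The Srxn1 values of HTS-3 lay entirely above those of TS-2, as for 5.96% of all genes, and overlapped those of NTS-1. Gsr read 1049, 1279 and 1087 in TS-2 mice and 1083, 1264, 1001 and 1012 in NTS-1 mice. The HTS-3 mice lay entirely below both groups, as they did for 6.25% of all genes against TS-2 and 4.86% against NTS-1. The log2 change of Gsr in HTS-3 livers was -1.11 ± 0.28 against NTS-1 (SE, 0.464-fold, adjusted p = 0.00995) and -1.17 ± 0.30 against TS-2 (0.444-fold, adjusted p = 0.0163). The second Gsr probe set gave -1.13 (adjusted p = 0.000145) and -1.12 (adjusted p = 0.000535). Against NTS-1, 9.65% of all genes changed, 5.19% higher and 4.46% lower in HTS-3. Against TS-2, 5.95% changed, 2.15% higher and 3.8% lower. Cell markers differed between these groups. The macrophage sum was 20524 to 30322 in HTS-3 mice, against 27549 to 40077 in TS-2 mice and 43756 to 48065 in NTS-1 mice. The endothelial sum was 8444 to 11312 in HTS-3 mice, against 11004 to 12752 in TS-2 mice and 11628 to 13364 in NTS-1 mice. The stellate sum was 18215 to 22776 in HTS-3 mice, against 17367 to 22867 in TS-2 mice and 15638 to 17818 in NTS-1 mice. All 3 sums of HTS-3 lay apart from those of NTS-1 and overlapped those of TS-2, and their part in the calls was not tested. With only the compared groups in the fit, neither comparison called any member. Without TS-2 mouse 2, neither Srxn1 (0.69, adjusted p = 0.0911) nor Gsr (-1.09, adjusted p = 0.083) was called against TS-2.

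**Figure D4:**
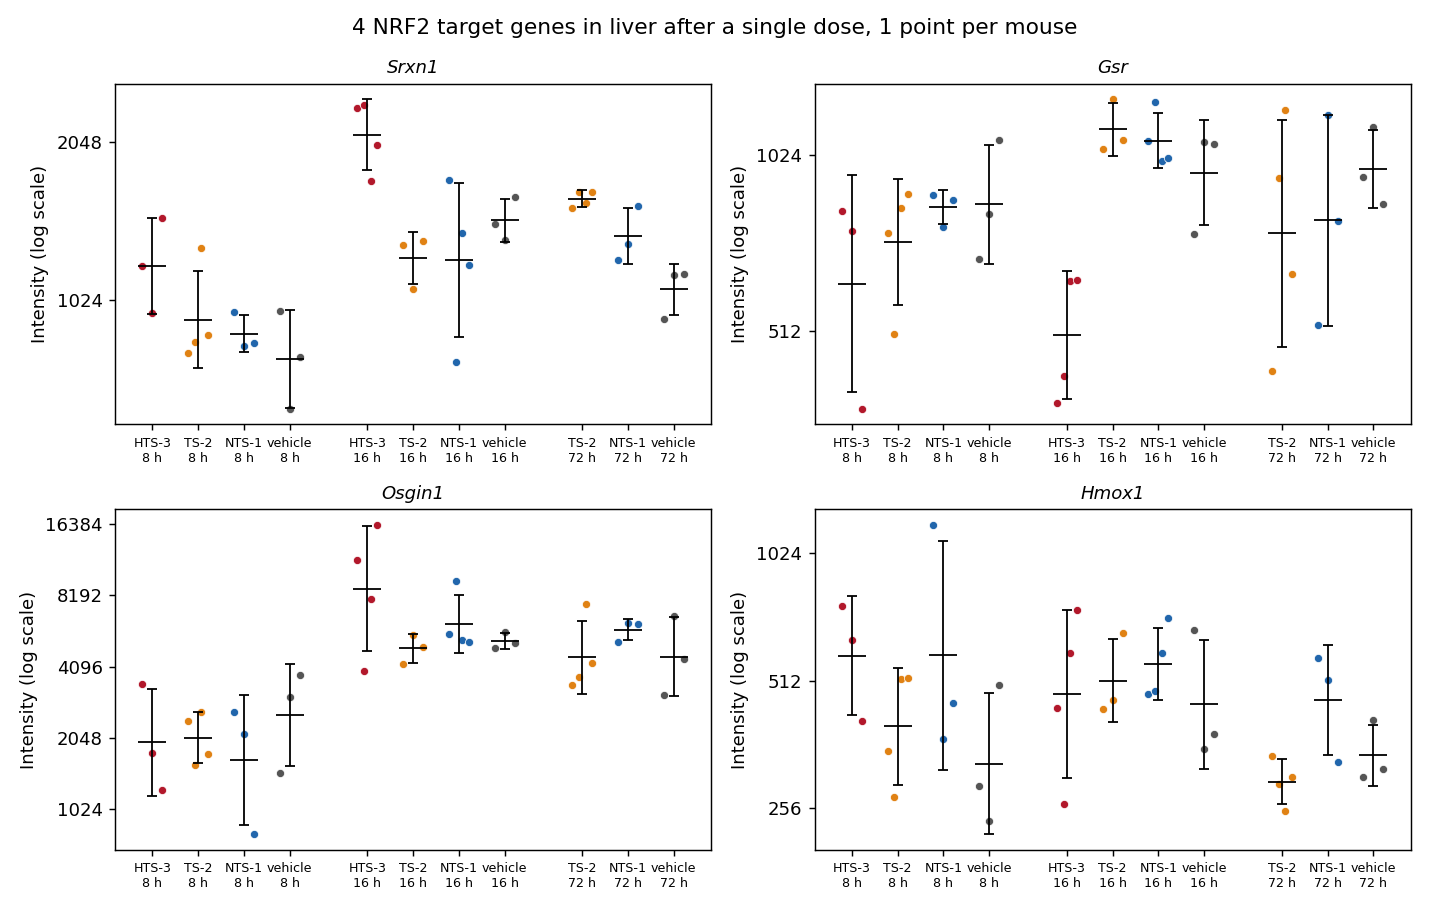
Intensity (log scale) of Srxn1, Gsr, Osgin1 and Hmox1 after a single dose, 1 point per mouse, for HTS-3, TS-2, NTS-1 and vehicle at 8, 16 and 72 h. Horizontal lines are means of log2 intensity and bars 1 SD. At 16 h the HTS-3 points lie above all vehicle points for Srxn1 and below them for Gsr.

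At 8 h, Srxn1 read 1189, 965 and 1469 in HTS-3 mice, against 974, 635 and 797 in vehicle mice, a log2 difference of 0.59 ± 0.21 (SE, adjusted p = 0.289). Hmox1 read 767, 638 and 410.2 in HTS-3 mice, against 289, 239 and 499.5 in vehicle mice, a log2 difference of 0.85 ± 0.39 (SE, adjusted p = 0.394). Neither passed the test, and in both genes the groups overlapped. Without HTS-3 mouse 3, whose labels disagree on the time, the log2 differences were 0.44 for Srxn1 (adjusted p = 0.546) and 1.10 for Hmox1 (adjusted p = 0.332). Hmox1 was as far above vehicle in the NTS-1 group at 8 h, at 1192, 373 and 454 (log2 difference 0.85, adjusted p = 0.688), where NTS-1 mouse 1 was the high one. The macrophage marker sum at 8 h was 64704, 40013 and 36930.0 in HTS-3 mice 1 to 3 and 48730.0, 36040.0 and 30835 in NTS-1 mice 1 to 3, against 24135 to 26984 in vehicle mice. The neutrophil sum was 514 to 2380.0 in HTS-3 mice and 515 to 930.0 in NTS-1 mice, against 255 to 479 in vehicle mice. Of its 9 markers, 6 read under 32 in every mouse of these groups, so the sum rests on few genes. In both gapmer groups mouse 1 was the highest for Hmox1 and for both sums, and the part of these cells in the Hmox1 values was not tested. In TS-2 mice Hmox1 read 349.7, 271, 518 and 519.6 at 8 h. HTS-3 and NTS-1 thus differed by 0.00 on the log2 scale for Hmox1, with a 95% interval of -0.81 to 0.80.

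At 72 h, Srxn1 read 1532, 1650.4, 1572 and 1650.3 in TS-2 mice and 1221, 1313 and 1552 in NTS-1 mice, against 943, 1141 and 1149 in vehicle mice. With this brightest probe set, both gapmer groups lay entirely above the vehicle group. They did so for 1.14% of all genes with TS-2 and 1.57% with NTS-1, and the 2 comparisons share the vehicle mice. The log2 difference from vehicle was 0.58 ± 0.20 for TS-2 (SE, adjusted p = 0.767) and 0.34 ± 0.21 for NTS-1 (adjusted p = 1), so neither passed. No other Srxn1 probe set put either gapmer group entirely above vehicle at 72 h. The next brightest read 324.6 to 406.8 in TS-2 mice and 320.1 to 349.4 in NTS-1 mice, against 261.3 to 324.6 in vehicle mice. A dimmer probe set read 97.8 to 178 in TS-2 mice and 102.65 to 118.95 in NTS-1 mice, against 99.95 to 132.5 in vehicle mice. The dimmest read only 14.65 to 17.62. At 16 h the log2 difference of TS-2 from vehicle for Srxn1 was -0.24 (adjusted p = 1). Nqo1 at 72 h read 81.8, 73.8, 34.8 and 34.8 in TS-2 mice and 34.8, 34.8 and 21.6 in NTS-1 mice, against 34.8, 34.8 and 44.1 in vehicle mice. TS-2 mice 1 and 2 were the high ones. The log2 difference was 0.47 ± 0.25 from vehicle (adjusted p = 1) and 0.81 ± 0.25 from NTS-1 (adjusted p = 0.382). Nqo1 read the same value, 34.77, on 20 of the 37 single-dose arrays, so its low values carry little information. The remaining single-dose differences from vehicle did not pass the test. For TS-2 the members' log2 differences lay between -0.32 (Osgin1) and 0.30 (Hmox1) at 8 h and between -0.24 (Srxn1) and 0.25 (Gsr) at 16 h. For NTS-1 they lay between -0.25 (Srxn1) and 0.32 (Hmox1) at 16 h and between -0.34 (Nqo1) and 0.43 (Hmox1) at 72 h, all with an adjusted p of 1. At 8 h Osgin1 read 1236 to 3447 in HTS-3 mice and 801 to 2622 in NTS-1 mice, against 1454 to 3757 in vehicle mice. Its log2 difference was -0.38 ± 0.47 for HTS-3 and -0.64 ± 0.47 for NTS-1 (SE, adjusted p = 1 for both). Gsr at 8 h read 821, 758 and 376 in HTS-3 mice, against 680.2, 812 and 1086 in vehicle mice, a log2 difference of -0.45 ± 0.33 (SE, adjusted p = 0.834). Hmox1 at 72 h read 339.8, 293, 253 and 303 in TS-2 mice and 303, 412 and 317 in vehicle mice, with overlap.

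Across the other comparisons between gapmers no member was called, in TS-2 against NTS-1 at 8, 16 and 72 h or in HTS-3 against either at 8 h. At an unadjusted p under 0.05, limma counted 1 member in these, Nqo1 in TS-2 against NTS-1 at 72 h. The shares of all genes called were 0.506%, 0.231% and 0.17% for TS-2 against NTS-1 at 8, 16 and 72 h. They were 0.572% for HTS-3 against NTS-1 and 0.264% for HTS-3 against TS-2 at 8 h. The change of each effect between times was tested as an interaction, and no member passed in any of 5, with 0 at an unadjusted p under 0.05. For HTS-3 at 16 h against 8 h, 1.32% of all genes passed, and the estimates for members reached 1.12 ± 0.64 for Osgin1 (SE, log2, adjusted p = 0.533). For TS-2 the shares were 0.011% for 16 against 8 h and 0.044% for 72 against 8 h. For NTS-1 they were 0.0715% and 0.203%.

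Levels of Srxn1 and Osgin1 also differed between times in the vehicle mice. Srxn1 read 635 to 974 at 8 h, 1331 to 1609 at 16 h and 943 to 1149 at 72 h in vehicle livers. Osgin1 read 1454 to 3757 at 8 h, 4895 to 5737 at 16 h and 3116 to 6674 at 72 h. The 8 and 16 h vehicle values did not overlap for either gene, which was not tested. They overlapped for Nqo1, Gclc, Gclm, Txnrd1, Hmox1 and Gsr. The share of all genes without overlap between these vehicle groups was not counted. By group median, Srxn1 over the 11 single-dose groups was highest in HTS-3 at 16 h (2204) and lowest in vehicle at 8 h (797). The lowest 3 medians were those of TS-2 (865), NTS-1 (848) and vehicle at 8 h, whose mice overlapped. The next below HTS-3 at 16 h was TS-2 at 72 h (1611), followed by vehicle at 16 h (1433), and TS-2 at 72 h and vehicle at 16 h overlapped. Gclm had group medians from 7961 in NTS-1 at 72 h to 10017 in HTS-3 at 8 h.

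The regulators of the pathway were measured beside its targets. Nfe2l2 itself read 1194, 2149, 1833, 3177 and 2462 in TS-2 mice at 2 weeks, against 684 to 1161 in vehicle mice. All TS-2 mice lay above all vehicle mice. Its log2 change was 1.11 ± 0.17 (SE, 2.16-fold, adjusted p = 4.1e-05). Keap1 read 615, 644, 540.3, 693 and 754 in TS-2 mice, against 340.1 to 476 in vehicle mice, a log2 change of 0.65 ± 0.09 (SE, 1.57-fold, adjusted p = 2.03e-05). Bach1 rose by 0.45 ± 0.17 (adjusted p = 0.0439) with overlapping groups. In all, 8 of 11 regulators rose and none fell, with a median log2 change of 0.57. The largest changes besides Nfe2l2 were 1.47 for Cebpb, 0.79 for Mafg, a small MAF partner of NRF2, and 0.65 for Sqstm1, whose protein binds KEAP1. In NTS-1 livers 0 of 11 regulators passed against vehicle, and TS-2 against NTS-1 called 9, with log2 changes of 1.43 for Nfe2l2, 0.40 for Keap1 and 0.71 for Bach1.

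Nfe2l2 was also higher than in vehicle in HTS-3 livers at 16 h. No member was called there with the brightest probe set of each gene. With probe sets averaged, Srxn1 was called higher and Gsr lower, as given above. Nfe2l2 read 3886, 3152, 3527 and 6685 in HTS-3 mice, against 2582, 1643 and 1755 in vehicle mice. The groups did not overlap. The log2 change was 1.08 ± 0.22 (SE, 2.11-fold, adjusted p = 0.00125). Keap1 stood at 0.25 (adjusted p = 0.605) and Bach1 at 0.66 (adjusted p = 0.206), so 1 regulator of 11, Nfe2l2, passed the test.

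Conjugation and reduction targets of NRF2 moved with the members at 2 weeks. Of 17 measured, 14 rose in TS-2 livers against vehicle and none fell, with a median log2 change of 0.74. Gstm2, a glutathione S-transferase, read 2039.7, 7010, 3015, 8900 and 7808 in TS-2 mice, against 895 to 1495 in vehicle mice. Its log2 change was 2.11 ± 0.26 (SE, 4.30-fold, adjusted p = 6.89e-06), with no overlap. Gstm3 rose by 1.74 ± 0.21 (SE, 3.33-fold), the carbonyl reductase Cbr3 by 1.30 and the UDP-glucose dehydrogenase Ugdh by 1.28 on the log2 scale. The glutathione S-transferases of this family share sequence, and their probe sets may read more than 1 of them. TS-2 against NTS-1 called 10 of the 17 higher and none lower, and NTS-1 against vehicle called 1, Akr7a5 (0.29).

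Other redox genes moved in both directions in TS-2 livers at 2 weeks, where 37.4% of all genes changed and 22.8% rose. Among 10 other glutathione genes 4 rose and 1 fell: Oplah (0.90), the glutathione synthetase Gss (0.88) and Slc3a2 (0.58), the heavy chain that partners Slc7a11, were higher, and the cystathionine lyase Cth fell by 0.80. Among 6 thioredoxin and peroxiredoxin genes 1 rose and 4 fell, led by Txnip (-0.86), a thioredoxin inhibitor, and the mitochondrial Txnrd2 (-0.66) and Txn2 (-0.42), while Txn1 (0.28) rose. Txnrd1 and its mitochondrial counterpart Txnrd2 thus had log2 changes of opposite sign. Of 5 genes that supply NADPH, Pgd (1.25) and Tkt (0.67) of the pentose phosphate pathway rose, and Idh1 (-1.14) and Taldo1 (-0.60) fell. Of 8 export and iron genes 3 rose and 2 fell, with the exporter Abcc2 at 1.29, Slc48a1 at 0.55, Blvrb at 0.54 and Fech at -0.56. Of 8 other antioxidant enzymes, Sesn2 (0.64) rose and catalase, Cat (-0.29), fell. All these are log2 changes with an adjusted p under 0.05.

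**Figure D5:**
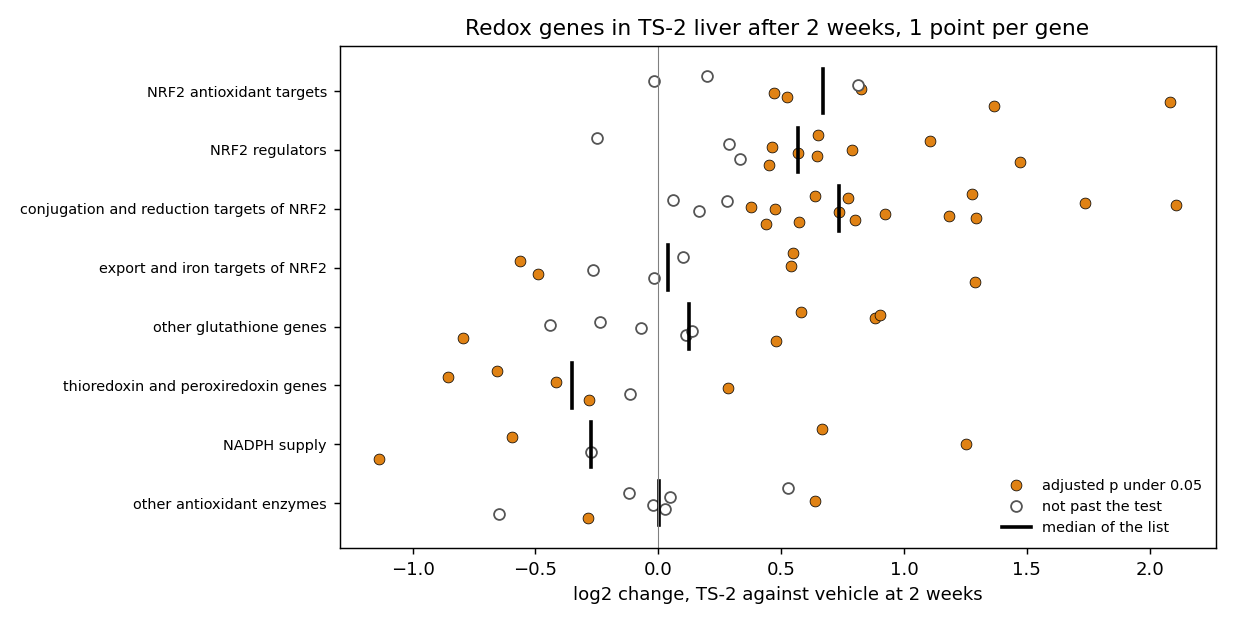
Log2 change in TS-2 against vehicle livers at 2 weeks for the members and 7 lists of redox genes, 1 point per gene, filled where the adjusted p was under 0.05. Black bars are list medians. The members, the regulators and the conjugation genes lie mostly to the right of 0, while the thioredoxin and NADPH lists lie on both sides.

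Heat shock genes and targets of ATF4 were counted as well at 2 weeks. Of 8 heat shock genes 7 rose in TS-2 livers, with a median log2 change of 1.06, led by Hspb1 (1.75), Hsph1 (1.27), Bag3 (1.11) and Hspa1a (1.10). Of 11 targets of ATF4, the factor of the integrated stress response, 5 rose and 1 fell: Ddit4 (1.82), Atf3 (1.75) and Chac1 (0.88) were among the higher ones and Vldlr (-0.95) was lower. The other 2 that rose were Slc3a2 and Sesn2, which are counted above in the lists of glutathione genes and antioxidant enzymes too. In NTS-1 livers at 2 weeks, Bag3 (0.69), Pgd (0.52), Txnip (-0.96) and Fech (-0.32) passed against vehicle.

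In HTS-3 livers at 16 h few genes of these lists passed against vehicle. Txnrd2 read 230.0, 299.6, 473 and 223, against 636, 703 and 844 in vehicle mice, with no overlap. Its log2 change was -1.31 ± 0.21 (SE, 0.404-fold, adjusted p = 8.3e-05). Oplah (1.43, adjusted p = 0.0356), Gss (0.51, adjusted p = 0.0312), Aox1 (1.10, adjusted p = 0.0435) and the ATF4 target Fgf21 (1.47) were higher. The exporter Abcc4 was called lower, but it read 5.65 to 9.10 in HTS-3 mice, against 12.1 to 16.7 in vehicle mice, too dim for its change to be measured. Gsr and Txnrd2, the reductases of glutathione and of mitochondrial thioredoxin, were thus both low in HTS-3 livers, Gsr without passing the test against vehicle. No gene of the lists of regulators, glutathione, thioredoxin, NADPH, conjugation, export or other antioxidant genes passed against vehicle at 8 h for any gapmer, nor at 16 or 72 h for TS-2 or NTS-1, in limma.

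As a description, the genes most like each member were sought by the Pearson r of log2 intensity over the 37 single-dose arrays, each taken as the deviation from the mean of its vehicle mice at that time, among 9123 other genes. The arrays share groups and depth of signal, so no test was made. The nearest genes were Pgm1 (0.884), Slc25a13 (0.874) and Clasp1 (0.872) for Gsr, and Lars (0.867), Aplp2 (0.865) and Slc35d1 (0.855) for Txnrd1. They were Sqstm1 (0.798), Abhd17c (0.792) and Sdha (0.791) for Gclc, and Zfp217 (0.787), Ccnt1 (0.776) and Calr (0.776) for Osgin1. For Srxn1 they were 2410022M11Rik (0.722), Rfc4 (0.638) and Fuca2 (0.638), and for Gclm Ephx1 (0.703), Sh3bgrl2 (0.663) and Prepl (0.656). For Hmox1 they were Plekha2 (0.689), Cd68 (0.677), which is on the list of macrophage markers, and Casp1 (0.633). For Nqo1 they were Zfp949 (0.615), Lysmd1 (0.614) and Prss36 (0.598). Members were left out of the search.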

How the data were processed

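Liver RNA of 56 mice, 1 array each, was labelled with biotin and hybridised to Affymetrix arrays. The authors deposited 1 linear intensity for each of 45101 probe sets, computed with RMA per the submitters' processing notes, but the sources used here give neither its version nor its settings. The 37 single-dose and 19 two-week arrays differ in their lowest and highest deposited intensities and were therefore analysed apart. Probe sets were named through the platform annotation, with symbols updated by gene identifier for 34754 of the 34958 probe sets with 1 symbol, while 932 with several symbols and 9211 with none were left out.

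Intensities were taken to log2, and each gene was read by the probe set with the highest mean over all arrays. A gene was kept when 3 or more arrays read it no lower than their 40th percentile, which left 18194 in the single-dose set, where the filter removed none because that percentile is the lowest value, and 14454 in the two-week set. Group means were fitted with limma 3.58.1 in R 4.3.3 over all arrays of a set, tested with eBayes, and adjusted by Benjamini-Hochberg over all genes at 0.05. Intervals are 95% and the tests two-sided. The number of arrays limits the precision. Data were simulated with the same spread of a gene in every group and few changed genes, none of them dim. There the fit recovered 92% of 2-fold and 96% of 4-fold changes for TS-2 against vehicle at 2 weeks over 14454 genes. It recovered 58% and 94% for HTS-3 against vehicle at 16 h over 18194 genes. In the arrays the spread differed between groups and 37.4% of genes changed for TS-2 at 2 weeks, so these rates are not the power of these comparisons.

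Members, lists and comparisons were chosen with earlier results of these data known. The text names all 9 members, at most the 4 genes with the largest change past the test from each other list and comparison, always Nfe2l2, Keap1 and Bach1, and the 3 genes most like each member. Marker genes named beside a result were chosen after their values were seen. Mice of different groups share replicate numbers in the labels, which do not say that these link mice. Their deviations from group means correlated from -0.50 to 0.47, and every pair was over 0.1 in 1 comparison of 18, that of TS-2 with vehicle at 8 h. The alternatives averaged all probe sets of a gene, or used a filter at an intensity of 32, quantile normalization, 32 added before log2, array weights, only the compared groups, the replicate block, each mouse left out, vehicle mice 1 to 5 or 6 to 10 alone, and the HTS-3 array with disagreeing times moved to 16 h. The Actb ratio as a covariate and a test of every probe set were added after the data were seen. No 2 arrays held identical values.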

Additional observations from a re-analysis of the deposited data

Results flagged for a closer look

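Of 59 groups of a member with 4 to 10 mice, 3 held a mouse whose gap to the next was large for the range of its group, and chance marks about 1 in 20 such groups. Gclc read 13466 in TS-2 mouse 3 at 72 h, the highest of 4 mice, where the next mouse read 8230.3. Osgin1 read 9439 in NTS-1 mouse 2 at 16 h, the highest of 4 mice, where the next read 5645. Txnrd1 read 789 in vehicle mouse 2 at 2 weeks, the lowest of 10 mice, where the next read 1084.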

How the results depend on the processing

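Of the 23 counts of members called, 149 of 161 values under other settings and 135 of 139 with a mouse left out stayed within 1.5 times the main count, and no member's change reversed its direction past the test. Most main counts were 0, so most of these values are a 0 that stayed 0. The values that moved under other settings all lay in HTS-3 against vehicle, NTS-1 or TS-2 at 16 h and in TS-2 against NTS-1 at 2 weeks. The 5 members called for TS-2 against vehicle at 2 weeks were 5 to 6 with each mouse left out, Hmox1 being gained without vehicle mouse 4, TS-2 mouse 1 or TS-2 mouse 2. For HTS-3 against vehicle at 16 h, where none was called, Gsr passed with a filter at 32, quantile normalization, array weights, the disputed 8 h array moved to 16 h or the Actb covariate (1 member each), 2 members passed with the mean of probe sets, and 0 to 1 with a mouse left out. For HTS-3 against NTS-1 at 16 h the 2 called members fell to 0 with only the compared groups, which leaves fewer mice to estimate the spread, and were 2 in every fit with a mouse left out. For HTS-3 against TS-2 at 16 h they fell to 0 with only the compared groups and were 0 to 2 with a mouse left out, 0 without TS-2 mouse 2, with Gsr lost without HTS-3 mouse 1 (adjusted p = 0.0594) or 2 (adjusted p = 0.0513). For TS-2 against NTS-1 at 2 weeks the 6 became 3 with only the compared groups and 5 to 7 with a mouse left out, Hmox1 being lost without TS-2 mouse 5 or NTS-1 mouse 3 or 4. With the replicate block, whose numbers are not known to pair mice, the counts were 0 in the comparisons of HTS-3 with NTS-1, of HTS-3 with TS-2 and of TS-2 with NTS-1, and the block changed no call for TS-2 against vehicle at 8 h. Dim signal limits Nqo1 after a single dose and leaves Slc7a11 unmeasured.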
